A study of Mus musculus with 6 samples.

Results

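The 48 genes described here encode the presynaptic machinery that stores, docks, fuses and recycles synaptic vesicles. They were chosen by name from 24421 genes in the count files, with earlier results of these data known. They fall into 13 subfamilies: synapsins, the synaptophysin family, SV2 proteins, SNAREs, SNARE disassembly factors, synaptotagmins, complexins, Rab3 with its C2 domain partners, active zone scaffolds, Munc13 proteins, endocytosis factors, vesicular glutamate transporters and a synuclein. RNA came from microdissected cerebellum of mice aged 1 year, with the Purkinje neuron layer and the molecular layer pooled. There were 3 wild type (WT) mice and 3 that lacked STIM1 (knockout, KO), a protein of the endoplasmic reticulum that senses its calcium content and opens store-operated channels in the plasma membrane. The labels name neither the allele, nor the cells in which the gene is removed, nor the strain, and all animals share the tissue and the age. The comparison asks which transcripts of release differ between the genotypes in this tissue.

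Synaptic vesicles are filled with transmitter by transporters in their membrane, tethered by synapsins and brought to the active zone, where scaffolds such as Bassoon, Piccolo and RIM hold release sites and calcium channels together. Fusion is driven by a complex of the vesicle SNARE synaptobrevin (VAMP) with syntaxin and SNAP-25 on the plasma membrane, prepared by Munc13, clamped and promoted by complexin and triggered by calcium binding to synaptotagmin. NSF and SNAP adaptors take the used complexes apart, and dynamin, amphiphysin and synaptojanin retrieve the membrane. In the molecular layer these proteins sit mainly in parallel fibre terminals of granule cells, climbing fibre terminals and the terminals of inhibitory interneurons, while their mRNA lies in the cell bodies that send out those axons.

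The 6 libraries held 645994 to 764839 counts in genes. A typical gene in the test had a median of 24 to 31 counts, which leaves a wide counting error on any single gene. Only 1.155% to 1.232% of the uniquely aligned reads were assigned to a gene. The sources used here do not give the strand setting of the counting, so for every gene below it is uncertain how far its counts are its own mRNA. Stim1 itself was counted 7, 21 and 3 times in WT replicates 1 to 3 but also 4, 3 and 2 times in the KO replicates (exact two-sided permutation p = 0.3), a weak check of the genotype. Genes of the Y chromosome were counted in WT replicate 3 (28) and KO replicate 3 (14) but nowhere else, so 1 library of each genotype stood apart. Fewer cells of a type and less RNA per cell cannot be told apart in such bulk samples.

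Markers of several cell types were present. The 10 Purkinje cell markers summed to 2977 to 3610 CPM (counts per 1e6 gene counts after scaling of library sizes) in WT and 2158 to 2994 in KO. The 11 Bergmann glia and astrocyte markers summed to 1257 to 1525 CPM in WT and 848 to 1316 in KO. Granule cell markers (10) summed to 282 to 313 CPM in WT and 256 to 376 in KO, and molecular layer interneuron markers (9) to 325 to 359 in WT and 308 to 398 in KO. Oligodendrocyte markers (8) summed to 151 to 182 CPM in WT and 135 to 168 in KO. Of the unipolar brush cell markers (5; 152 to 197 CPM in WT, 143 to 173 in KO), Lmx1a was at 0 in every library. The microglial markers C1qa, C1qb, Tmem119 and P2ry12 had at most 2 counts in any library. Endothelial and mural markers (6) summed to 15.5 to 28.7 CPM in WT and 15.0 to 39.2 in KO, where Flt1 and Vtn reached 12 counts in KO replicate 1 and Cldn5 had at most 1 in any library. The Purkinje and glial sums had lower means in KO, as most vesicle genes below did, and their part in those differences was not tested. The Purkinje sum leaned on Itpr1, its most counted marker (1217, 1273 and 1029 across WT, 889, 886 and 822 across KO). Pcp2 went the other way, from 60, 59 and 47 to 71, 60 and 70. Of the 8 Purkinje markers tested, 6 were lower in KO.

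Levels per kilobase of exon, which adjust the counts for gene length, spanned a wide range. With the strand setting not given, their order is one of counts and may not be that of the mRNAs. The highest was Cplx1, the complexin of many fast synapses, at 56.1 ± 11.9 CPM per kilobase (SD over all 6 libraries), followed by the vesicle membrane protein synaptophysin (Syp) at 46.3 ± 9.79. Next came Syt11, a synaptotagmin that does not bind calcium, at 39.3 ± 9.00, the vesicle GTPase Rab3a at 37.4 ± 5.47, and Cplx2 at 31.2 ± 6.79 CPM per kilobase. Each of these 5 differed from its neighbour in the order by less than the larger of their SDs. The synapsins Syn2 and Syn3 (28.3 ± 2.84 and 26.0 ± 3.65), the Rab3 effector rabphilin (Rph3a, 27.4 ± 3.14), Snap25 (21.0 ± 2.82) and Vamp2 (17.1 ± 2.59) formed the next step. The active zone scaffolds were much lower, with Bsn (Bassoon) highest at 2.22 ± 0.643 and Pclo (Piccolo) at 2.05 ± 0.332 CPM per kilobase. Slc17a7, the vesicular glutamate transporter VGLUT1 of granule cells, was at 3.10 ± 0.743. Near the bottom Stx1a, the plasma membrane syntaxin, was at 0.172, Syt3 at 0.0753 and Unc13b at 0.0736 CPM per kilobase. Stx1a had 1 count each in WT replicate 1 and KO replicate 1 and none elsewhere, Slc17a6 (VGLUT2) had 1 count in KO replicate 1 alone, and Rab3b had 0 in every library. Where a library shows 0, as many as 3 counts (3.81 to 4.77 CPM) remain possible from counting error alone.

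**Figure D1:**
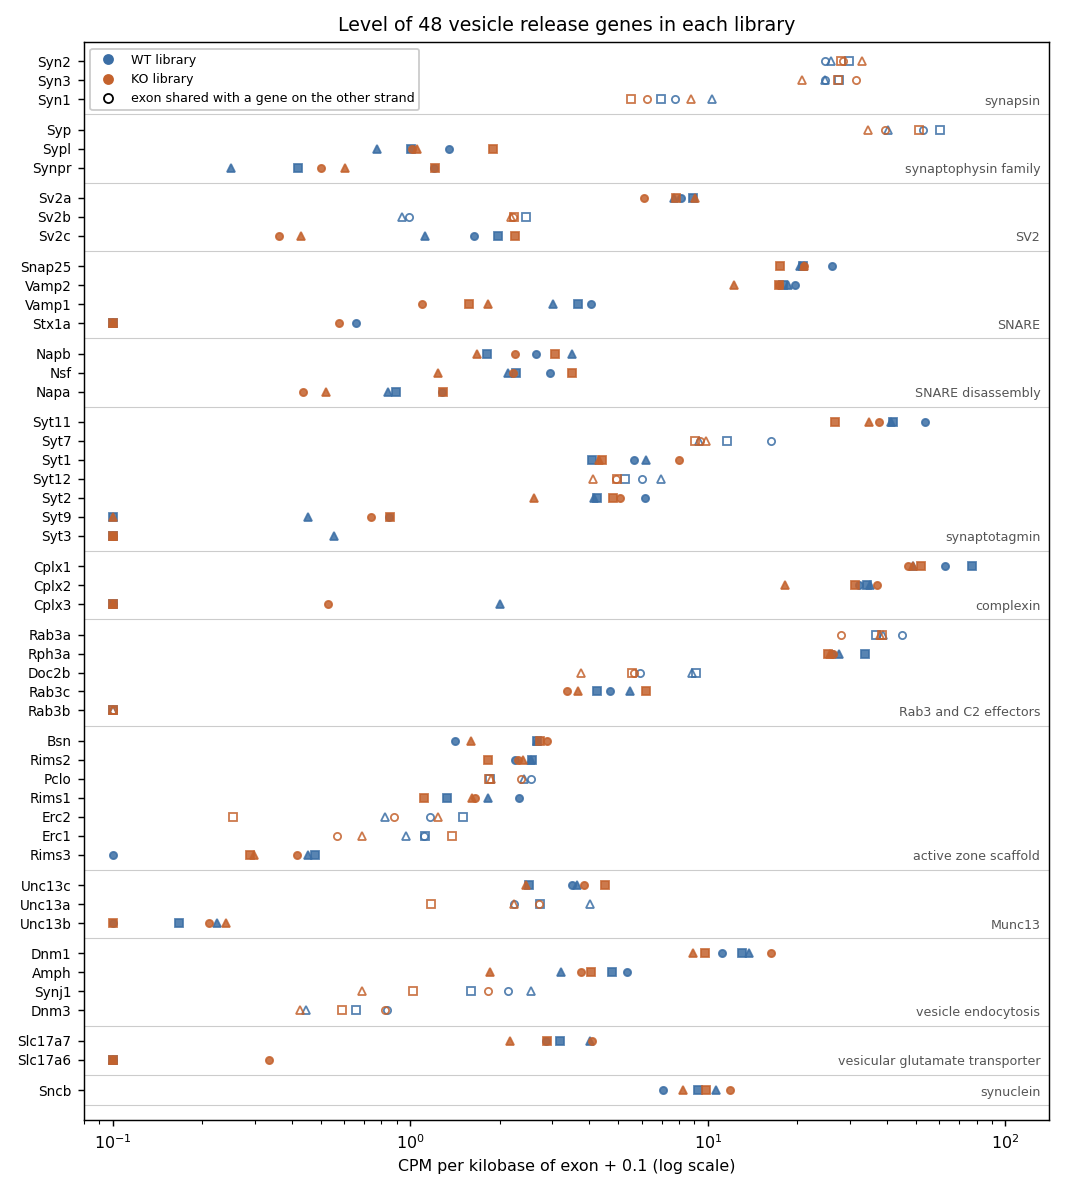
Level of each of the 48 genes in each of the 6 libraries, in CPM per kilobase of exon plus 0.1 on a log axis, grouped by subfamily, so that a count of 0 is drawn at 0.1. Symbols are libraries (circle, square and triangle for replicates 1, 2 and 3), open where exons overlap a gene of the opposite strand. Cplx1, Cplx2, Syp, Syt11 and Rab3a sit near the right edge, and Rab3b is at 0 in every library.

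Filtering on low counts left 33 of the 48 genes for the test. The 15 others had at most 14 counts in any library, 8 of them at most 10 counts over all 6, and their exact two-sided permutation p was 0.2 or higher, where the smallest that 3 against 3 allows is 0.1. Among the 15 were Synj1 (synaptojanin 1, with 11, 8 and 14 counts across WT and 11, 5 and 3 in KO), Dnm3, Rims1, Rims3, Erc2, Unc13b, Napa, Syt3, Syt9, Cplx3, Sypl and Synpr besides Stx1a, Slc17a6 and Rab3b.

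Of the 33 tested genes, 0 passed in the comparison of KO with WT at an adjusted p under 0.05 (edgeR's quasi-likelihood test with Benjamini-Hochberg adjustment over all genes tested; adjusted p 0.917 to 0.997), against a background of 0.0% of the 5320 genes tested. DESeq2, limma-voom and the edgeR exact test also called 0 of them. At an unadjusted p under 0.05 there were 3, Vamp1, Syt11 and Doc2b, all lower in KO, or 9.09% of the tested members beside 4.62% of all tested genes (3.05% lower in KO and 1.58% higher). The number was 2 with DESeq2 (6.06% beside 1.80% of all genes), 2 without KO replicate 3 (5.71% beside 5.01%), 5 without WT replicate 3 (14.7% beside 5.05%) and 6 without KO replicate 1 (17.6% beside 4.92%). The fitted difference was below 0 for 26 of the 33 and above 0 for 7, or 78.8% below 0 where the background was 49.7%. Their median log2 fold change was -0.20, and that of all tested genes was 0.0019. All KO libraries were below all WT libraries for 5 members (Vamp1, Vamp2, Syt11, Syt12 and Doc2b), 15.2% beside 5.85% of all tested genes. No member had every KO library above every WT library. In both directions together the groups did not overlap for 10.7% of all tested genes. The members were chosen with earlier results of these data known, so these shares describe the list and do not test it. Standard errors of the members ran from 0.15 to 0.60 on the log2 scale with a median of 0.29.

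**Figure D2:**
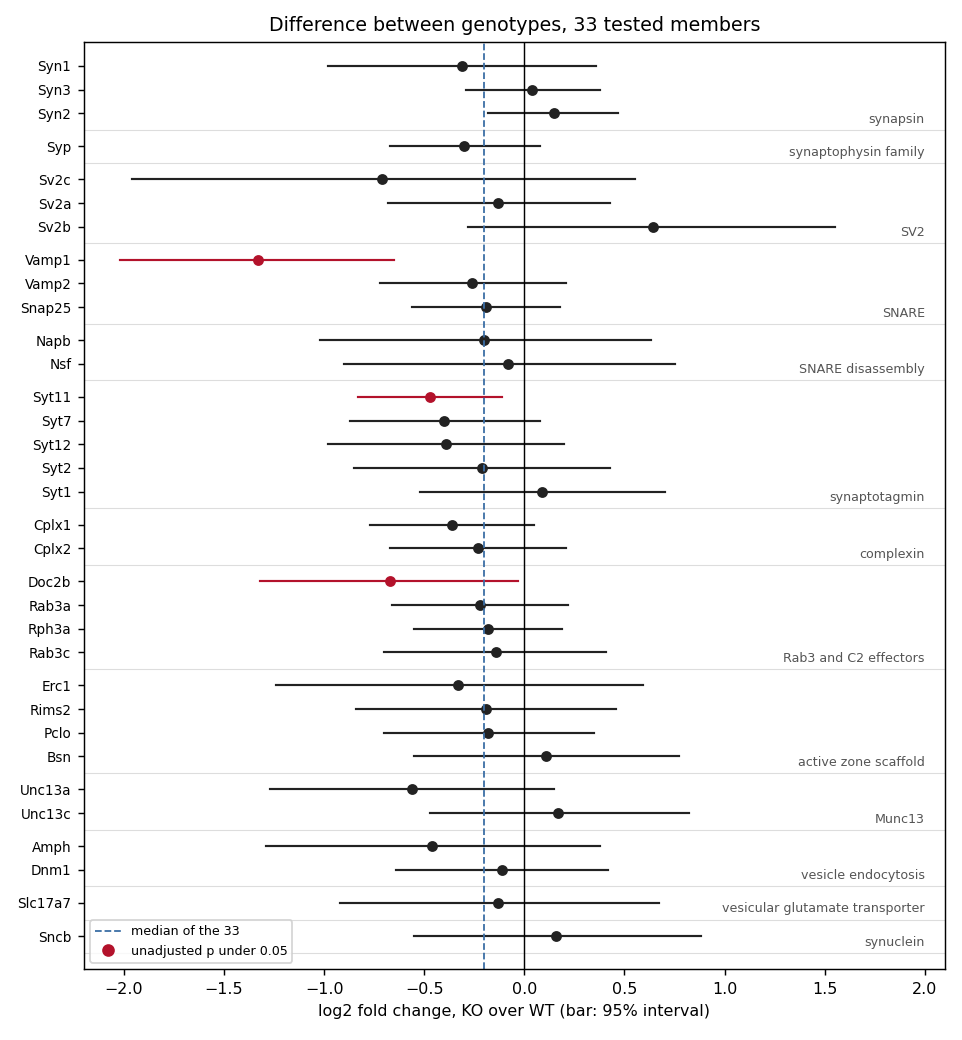
Log2 fold change of KO over WT for the 33 tested genes by subfamily, with 95% intervals from the quasi-likelihood fit. Red marks the 3 genes at an unadjusted p under 0.05, none of which passed after adjustment, and the dashed line is the median of the 33, at -0.20. Most points lie left of 0, and all intervals but those in red cross it.

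The SNAREs held the gene with the largest difference among the 33, Vamp1. It encodes synaptobrevin 1, a vesicle SNARE that forms the fusion complex with syntaxin and SNAP-25, and lies on chromosome 6 at 125215551 to 125245964, plus strand (GRCm38). Counts of Vamp1 were 27, 24 and 21 in the WT libraries, in replicate order, against 8, 10 and 11 in the KO libraries, or 40.2, 36.3 and 29.6 CPM against 10.1, 15.0 and 17.5 CPM. The groups did not overlap, and the highest KO library was well under the lowest WT library. The mean was 35.4 ± 5.38 CPM in WT and 14.2 ± 3.74 CPM in KO (n = 3 per genotype, SD), so that KO stood at 0.397 of WT by the fit. The log2 fold change was -1.33 with a standard error of 0.33 (95% interval -2.02 to -0.65), and the edgeR adjusted p was 0.917. Vamp1 shares no exon with an annotated gene on the other strand.

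The promoters of Vamp1 and Syt11, as the 2 genes with the lowest p, are shown for their sequence context. Each runs from 250 bases before to 50 after the RefSeq start of the gene on GRCm38.p6, 5′ to 3′ on the gene's strand, with the GC box GGGCGG in capitals. Vamp1 is at chr6:125215331-125215630, plus strand, and Syt11 at chr3:88772550-88772849, minus strand.
Vamp1: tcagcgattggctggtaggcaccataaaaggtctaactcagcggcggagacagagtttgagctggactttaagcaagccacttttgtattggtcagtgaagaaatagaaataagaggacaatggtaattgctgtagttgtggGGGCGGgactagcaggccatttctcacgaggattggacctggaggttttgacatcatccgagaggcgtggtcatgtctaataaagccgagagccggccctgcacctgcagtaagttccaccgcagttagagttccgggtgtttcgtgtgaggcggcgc
Syt11: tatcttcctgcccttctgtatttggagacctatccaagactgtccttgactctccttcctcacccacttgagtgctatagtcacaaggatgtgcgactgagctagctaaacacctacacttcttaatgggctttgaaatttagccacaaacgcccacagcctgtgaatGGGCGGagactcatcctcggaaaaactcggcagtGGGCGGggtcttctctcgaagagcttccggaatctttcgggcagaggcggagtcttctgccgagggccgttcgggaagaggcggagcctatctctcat
The Vamp1 window holds 1 match and the Syt11 window 2, all on the gene's own strand.

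RefSeq promoters were matched for 41 of the 48 genes, 54 promoters in all; Vamp2, Snap25, Syn3, Syt7, Syt12, Doc2b and Rims2 were not matched. GGGCGG, searched on both strands, was in 34 of the 54, or 63.0%, beside 35.7% of 32851 mouse promoters of the same length. The median GC content was 62.2% in the members' promoters and 52.7% in all, and the motif is itself rich in G and C. The TATA box letters TATAAA, on both strands, were in 3 of the 54 (5.56%), those of Rab3b and Sv2b, beside 13.6% of all. The cAMP response element TGACGTCA, which reads the same on both strands, was in 2 of the 54 (3.70%), those of Syn1 and Napa, beside 1.79% of all. A match describes letters and not binding.

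Vamp2 (chromosome 11, 69088490 to 69092384, plus strand), which encodes the related synaptobrevin 2, had 74.5, 68.0 and 70.5 CPM in WT and 65.8, 65.8 and 46.1 CPM in KO. All 3 KO libraries lay below the WT libraries, 2 of them narrowly. Its log2 fold change was -0.26 (SE 0.22, 95% interval -0.72 to 0.21; edgeR adjusted p 0.987), and -0.12 without KO replicate 3. Snap25 (chromosome 2, 136713453 to 136782428, plus strand), which encodes the plasma membrane SNARE SNAP-25, had 177, 141 and 138 CPM in WT and 142, 118 and 142 CPM in KO. Those groups overlapped, with a log2 fold change of -0.19 (SE 0.18, 95% interval -0.56 to 0.18) that was -0.06 without WT replicate 1.

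The balance of the 2 synaptobrevins was read within each library, which removes library size. Vamp1 made up 35.1%, 34.8% and 29.6% of the Vamp1 and Vamp2 counts in WT replicates 1 to 3 and 13.3%, 18.5% and 27.5% in KO replicates 1 to 3. The groups did not overlap, but KO replicate 3, with a Wilson 95% interval of 16.1% to 42.8% on 40 counts, came close to WT replicate 3 (20.2% to 41.0% on 71 counts). The mean was 33.1% ± 3.09 in WT and 19.8% ± 7.17 in KO (n = 3 per genotype, SD), a difference of -13.4 percentage points. The exact two-sided permutation test gave p = 0.1, the smallest possible, and 0.4 adjusted over the 4 pairs compared. The other pairs overlapped between genotypes. Cplx1 was 45.0% ± 6.16 of the Cplx1 and Cplx2 counts in WT and 44.4% ± 9.35 in KO (exact permutation p = 1.0, n = 3 each). Syt2 was 45.6% ± 6.66 of the Syt2 and Syt1 counts in WT and 40.6% ± 8.14 in KO (exact permutation p = 0.4), and Syn2 37.4% ± 0.857 of the Syn2 and Syn3 counts in WT and 39.6% ± 7.14 in KO (exact permutation p = 0.9). These pairs were chosen after their values were seen.

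**Figure D3:**
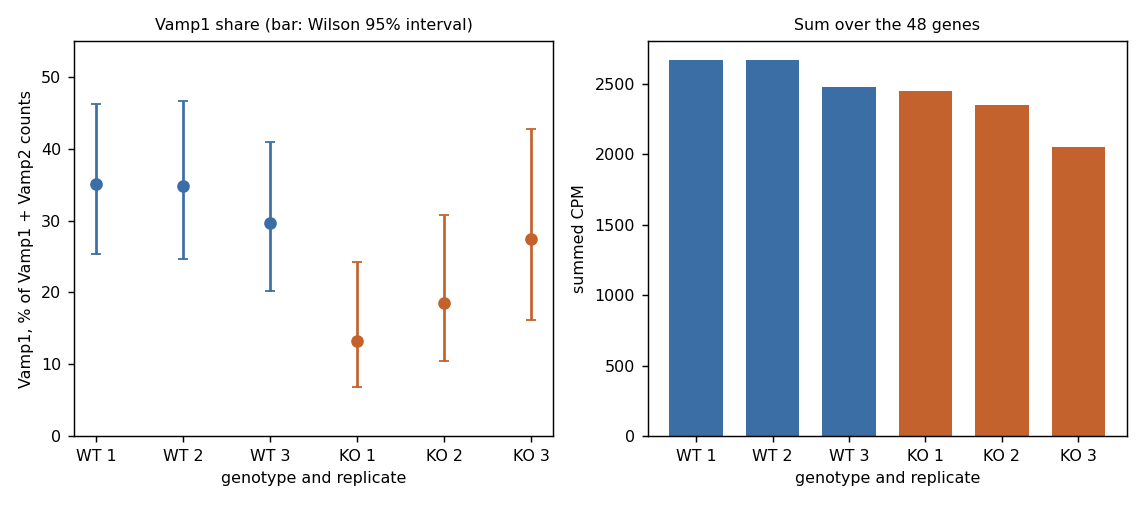
Left, Vamp1 as a percentage of Vamp1 and Vamp2 counts in each library, with Wilson 95% intervals. Right, CPM summed over the 48 genes in each library. The Vamp1 share was 29.6% to 35.1% in WT and 13.3% to 27.5% in KO, and the sum was lowest in KO replicate 3, at 2049 CPM.

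Synaptotagmins are the calcium sensors and regulators of fusion. Of 7, 5 were tested, 4 of them below 0 and 1 above. Syt11 (chromosome 3, 88744700 to 88775164, minus strand) had 188, 144 and 152 counts across WT and 154, 93 and 113 in KO, or 280, 218 and 214 CPM against 195, 139 and 180 CPM. The groups did not overlap, and WT replicate 1 and KO replicate 2 stood at the extremes. The mean was 237 ± 37.1 CPM in WT and 171 ± 28.9 CPM in KO (n = 3 per genotype, SD), a log2 fold change of -0.47 (SE 0.17, 95% interval -0.83 to -0.11; edgeR adjusted p 0.987). Without WT replicate 1 the log2 fold change was -0.34 and without KO replicate 2 it was -0.35, with unadjusted p of 0.090 and 0.0688 in edgeR.

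Syt12 (chromosome 19, 4445908 to 4477447, minus strand), a synaptotagmin without calcium binding, had 32.8, 28.7 and 38.1 CPM in WT and 26.6, 26.9 and 22.3 CPM in KO. All KO libraries lay below all WT libraries, though KO replicate 2 was close to WT replicate 2. The log2 fold change was -0.39 (SE 0.28; edgeR adjusted p 0.987), and the gene shares 950 exonic bases with a more abundant gene on the other strand. Without both libraries with Y-linked counts Syt12 was at -0.21. Syt7, the high-affinity sensor of slow and facilitating release, had 121, 86.2 and 69.1 CPM in WT and 69.6, 67.3 and 73.2 in KO, with WT replicate 3 inside the KO range (-0.40, SE 0.23). The Syt7 value was -0.15 without WT replicate 1 and -0.58 without WT replicate 3 (edgeR unadjusted p 0.0245). The fast sensors overlapped between genotypes. Syt1 had 46.2, 33.3 and 50.7 CPM in WT and 65.8, 35.9 and 35.0 CPM in KO, and KO replicate 1 was the highest of all (0.09, SE 0.29; 95% interval -0.52 to 0.70). Syt2, the fast sensor of many hindbrain and cerebellar synapses, had 46.2, 31.7 and 31.0 CPM in WT and 38.0, 35.9 and 19.1 CPM in KO, where KO replicate 3 alone lay below the WT range (-0.21, SE 0.30; 95% interval -0.85 to 0.43). Without KO replicate 3 the Syt2 value was 0.02.

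**Figure D4:**
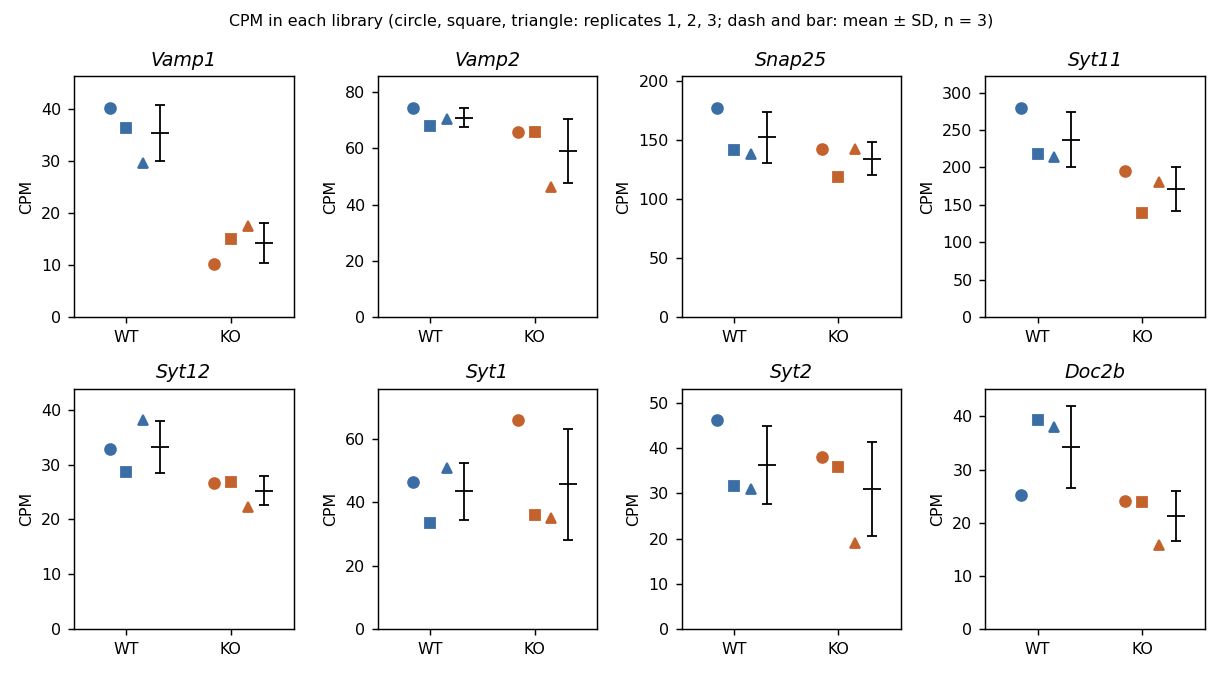
CPM of 8 SNARE, synaptotagmin and C2 domain genes in each library, WT at left and KO at right in each panel, with circle, square and triangle for replicates 1, 2 and 3, and the mean ± SD (n = 3) beside them. Vamp1, Vamp2, Syt11, Syt12 and Doc2b show no overlap between genotypes, while Snap25, Syt1 and Syt2 do.

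Complexins bind the assembled SNARE complex. Cplx1 had 137, 169 and 107 CPM in WT and 103, 114 and 107 CPM in KO, with a mean of 138 ± 31.1 against 108 ± 5.64 (n = 3 per genotype, SD) and a log2 fold change of -0.36 (SE 0.19, 95% interval -0.77 to 0.05; edgeR adjusted p 0.987). WT replicate 3 lay inside the KO range. The value was -0.19 without WT replicate 2 and -0.52 without WT replicate 3. Cplx2 had 158, 168 and 173 CPM in WT and 182, 153 and 89.1 CPM in KO. KO replicate 3 was far below the other libraries and KO replicate 1 was the highest (-0.23, SE 0.21). The Cplx2 value was 0.0 without KO replicate 3 and -0.47 without KO replicate 1 (edgeR unadjusted p 0.0484).

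Rab3 is the GTPase that carries vesicles to the active zone, and rabphilin and Doc2b are C2 domain proteins that bind it or the SNARE machinery. All 4 tested genes of this group were below 0. Doc2b (chromosome 11, 75768966 to 75796049, minus strand), a calcium sensor of spontaneous and asynchronous release, had 17, 26 and 27 counts across WT and 19, 16 and 10 in KO, or 25.3, 39.3 and 38.1 CPM against 24.1, 23.9 and 15.9 CPM. The groups did not overlap, but WT replicate 1 was almost level with KO replicates 1 and 2. The log2 fold change was -0.67 (SE 0.31, 95% interval -1.32 to -0.03; edgeR adjusted p 0.987). Its unadjusted p was over 0.05 with DESeq2 (0.114) and, in edgeR, without WT replicate 2 (0.128), WT replicate 3 (0.116) or KO replicate 3 (0.134, at a log2 fold change of -0.52). Without both libraries with Y-linked counts it was at -0.44 (edgeR unadjusted p 0.269). Doc2b shares 241 exonic bases with Gm12339 on the other strand. Rab3a had 99.9, 81.6 and 86.0 CPM in WT and 62.0, 85.3 and 84.3 CPM in KO, and KO replicate 1 alone was low (-0.22, SE 0.21; -0.08 without it). Rph3a (-0.18, SE 0.17) and Rab3c (-0.14, SE 0.26) overlapped between genotypes.

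Among the vesicle membrane and tethering proteins the signs were mixed. The synapsins, phosphoproteins that bind vesicles to each other and to actin, had Syn2 at 174, 209 and 182 CPM in WT and 200, 197 and 231 CPM in KO (0.15, SE 0.15; 95% interval -0.18 to 0.47). The Syn2 groups overlapped, with KO replicate 3 the highest. Syn3 had 304, 339 and 302 CPM in WT and 386, 335 and 253 CPM in KO, where KO held both the highest and the lowest library (0.04, SE 0.16), and Syn1 had a log2 fold change of -0.31 (SE 0.32). The summed synapsin level was 530 ± 34.9 CPM in WT and 556 ± 47.3 in KO (n = 3 per genotype, SD). Syp had 274, 313 and 210 CPM in WT and 204, 266 and 180 CPM in KO (-0.30, SE 0.18). Replicate 2 was the highest and replicate 3 the lowest in each genotype, and the groups overlapped. With single libraries left out the Syp value ran from -0.48 (without KO replicate 2) to -0.16 (without WT replicate 2). The SV2 proteins, transporter-like glycoproteins of the vesicle, gave Sv2a at 37.3, 40.8 and 35.2 CPM in WT and 27.8, 35.9 and 41.4 in KO (-0.13, SE 0.26). Sv2b had 5, 13 and 5 counts across WT and 14, 12 and 11 in KO (0.64, SE 0.43), and Sv2c 10, 12 and 7 in WT and 2, 14 and 2 in KO (-0.71, SE 0.60), so that KO replicates 1 and 3 were low and KO replicate 2 was the highest of all. The β-synuclein gene Sncb, of a presynaptic chaperone-like protein, had 14.9, 19.7 and 22.6 CPM in WT and 25.3, 20.9 and 17.5 in KO (0.16, SE 0.34).

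Active zone scaffolds and priming factors were read at low depth. Bsn had 14, 27 and 29 counts across WT and 35, 28 and 15 in KO, a log2 fold change of 0.11 (SE 0.31), with the lowest libraries being WT replicate 1 and KO replicate 3. Pclo (-0.18, SE 0.25), Rims2, which binds Rab3 and calcium channels (-0.19, SE 0.31), and Erc1, a scaffold of the ELKS family (-0.33, SE 0.43), overlapped between genotypes. Unc13a, the Munc13 protein that opens syntaxin for priming, had 26.8, 33.3 and 49.3 CPM in WT and 32.9, 13.5 and 27.0 CPM in KO (-0.56, SE 0.34). Its KO replicate 2 was the low library. Unc13c, the Munc13 of cerebellar granule cells, had 29.8, 21.2 and 31.0 CPM in WT and 32.9, 38.9 and 20.7 in KO (0.17, SE 0.31).

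Factors of SNARE disassembly, endocytosis and glutamate loading all overlapped between genotypes. Nsf, the ATPase that takes SNARE complexes apart, had a log2 fold change of -0.08 (SE 0.39), and its adaptor Napb had 17.9, 12.1 and 24.0 CPM in WT and 15.2, 20.9 and 11.1 CPM in KO (-0.20, SE 0.39). Dnm1, the dynamin that cuts endocytic vesicles from the membrane, had 58.1, 68.0 and 71.9 CPM in WT and 84.8, 50.9 and 46.1 CPM in KO, where KO replicate 1 was the highest and the other KO libraries the lowest (-0.11, SE 0.25). Amphiphysin (Amph) had 16, 14 and 10 counts across WT and 13, 12 and 5 in KO (-0.46, SE 0.40). Slc17a7 had 14.9, 16.6 and 21.1 CPM in WT and 21.5, 15.0 and 11.1 CPM in KO, overlapping, with a log2 fold change of -0.13 and a 95% interval of -0.92 to 0.67.

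Summed over the 48 genes, the level was 2668, 2666 and 2474 CPM in WT and 2449, 2350 and 2049 CPM in KO. No KO library reached the lowest WT library, with KO replicate 1 close to WT replicate 3, and the means were 2603 ± 112 and 2283 ± 209 CPM (n = 3 per genotype, SD). By subfamily the log2 ratio of the summed levels, KO over WT, was lowest for the synaptotagmins (-0.36), the SNAREs (-0.32) and the complexins (-0.30), and above 0 only for the synapsins (0.07) and Sncb (0.16). KO replicate 3 weighed in the count of signs. Of the 33 tested members, 13 had their lowest value there, 39.4% beside 16.5% of all tested genes, and 28 in one of the KO libraries (84.8% beside 51.0%). Without KO replicate 3, 22 of 35 members tested were below 0, 62.9% beside 51.1% of all genes then tested, and the median was -0.18. Without both libraries with Y-linked counts it was 21 of 34 (61.8% beside 50.4%).

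The spread between animals of a genotype was close to that of other genes. The within-genotype chi-square of the counts per degree of freedom has a mean of 1, and a median below 1, for pure counting noise. Its median was 1.49 over the tested members and 1.52 over all tested genes. The chi-square per degree of freedom was over 2 for 12 of the 33, a count not made over all tested genes. The highest were Syp at 6.63, Cplx2 at 5.53, Syn3 at 5.29, Sv2c at 4.75 and Syt11 at 3.70.

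Annotated genes on the other strand share exon with 16 of the 48 members, 12 of them tested. The 21 tested members without such an overlap had 17 below 0 and a median log2 fold change of -0.19, and the 12 with one had 9 below 0 and a median of -0.30. Fitted and scaled on genes without an overlap alone, the median was -0.11 over the 20 members then tested. Of 18 such neighbours, 10 had a row in the count files, and 9 of these 10 had a higher level per kilobase than the vesicle gene opposite. A930001C03Rik, which shares 950 exonic bases with Syt12, had 571, 718 and 762 counts across WT and 774, 770 and 578 in KO, or 381 CPM per kilobase beside 5.28 for Syt12. Timp4, a metalloproteinase inhibitor gene that lies within Syn2 and shares 90 bases, had 54.6 CPM per kilobase beside 28.3 for Syn2. 8030443G20Rik shares 317 bases with Rab3b and had 9 to 20 counts per library, while Rab3b had 0. The exception was Timp3, nested in Syn3 with 1733 shared bases, at 4.91 CPM per kilobase beside 26.0 for Syn3. None of the 10 neighbours passed in the comparison of genotypes (edgeR, 0 at an adjusted p under 0.05), and A930001C03Rik lay at 0.01 (SE 0.14).

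Other genes of the vesicle cycle were read from a separate list of 100, of which 99 were in the files and 61 were tested. That list was also chosen with earlier results of these data known, so its shares are description only. Here too 0 passed after adjustment. At an unadjusted p under 0.05, 6 were lower and 1 higher in KO (11.5% beside 4.62% of all tested genes), and 39 of the 61 were below 0 (63.9% beside 49.7%) with a median log2 fold change of -0.08. Pacsin1, a membrane-bending adaptor of endocytosis, had 65.6, 71.0 and 74.7 CPM in WT and 49.4, 35.9 and 38.2 CPM in KO (-0.77, SE 0.23; edgeR adjusted p 0.917). Its groups did not overlap. Atp6v1b2, a subunit of the proton pump that energises vesicle filling, had 38.8, 46.9 and 49.3 CPM in WT and 25.3, 15.0 and 28.6 CPM in KO (-0.97, SE 0.29; edgeR adjusted p 0.917), again with no overlap. Another pump subunit, Atp6v1a, was at -0.85 (SE 0.38) with overlapping groups. The clathrin heavy chain Cltc (-0.81, SE 0.30), the clathrin adaptor Eps15 (-0.51, SE 0.21) and Syt13 (-0.90, SE 0.40) did not overlap between genotypes. Svop, an SV2-related vesicle protein, was the 1 on the higher side, at 58.1, 65.0 and 52.1 CPM in WT and 82.3, 70.3 and 95.4 CPM in KO (0.49, SE 0.22; edgeR adjusted p 0.987), and it shares 161 exonic bases with a gene on the other strand. By role, the synaptotagmins and priming factors had 9 of 11 below 0, the vesicle membrane proteins 9 of 12, the SNAREs and SM proteins 5 of 7, the active zone genes 6 of 11 and the endocytosis genes 10 of 20.

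The authors' deposited tables compare the same 6 libraries and are not independent of these values. The authors' deposited DESeq table had 2 of the 48 genes at an unadjusted p under 0.05, beside 1.86% of its 16540 genes with a p. The authors' deposited edgeR table had 3, beside 1.90% of its 24420 genes, which include genes at 0 in every library. Both backgrounds hold low-count genes that the 5320 tested here leave out, so the shares are not on one scale. In the authors' deposited DESeq table the fold of KO over WT was 0.410 for Vamp1 (p = 0.000461) and 0.734 for Syt11 (p = 0.0279). In the authors' deposited edgeR table the log2 ratio of WT over KO was 1.31 for Vamp1 (p = 0.000126), 0.45 for Syt11 (p = 0.0215) and 0.65 for Doc2b (p = 0.0437).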

How the data were processed

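RNA was measured in microdissected cerebellar Purkinje neuron and molecular layers of 3 WT and 3 KO mice, which the series text calls biological replicates, so p-values measure the spread between these samples. Per the labels' protocols, TRIzol RNA went into TruSeq mRNA libraries read from a single end. Per the submitters' processing notes, the tools were TopHat, HTSeq 0.9.1, DESeq and edgeR, with GRCm38 as the build; the annotation and strand setting were not given in the sources used here. Deposited files for each sample hold raw counts per gene from the authors, and 98.76% to 98.84% of the uniquely aligned reads fell in no gene and stayed out of library sizes. The authors' deposited comparison tables hold size-factor normalised signal, a ratio (fold), log2 values and p-values per the file headers, and were used only where named. Before the tests, genes were filtered with filterByExpr (minimum count 10), leaving 5320 of 24421. The test was edgeR 4.0.16 quasi-likelihood with TMM factors (0.954 to 1.04), fitted on all genes tested with Benjamini-Hochberg adjustment. R 4.3.3, limma 3.58.1, DESeq2 1.42.0, pandas 2.3.3 and scipy 1.17.1 with Python 3.11.15 were used beside it. CPM are counts over the gene total times the TMM factor. Exon lengths, coordinates and overlaps came from GENCODE release 21 (98.4% of symbols matched), and promoters from RefSeq. On simulated counts for 5320 genes in the same design, with 200 changed, 60.0% of genes changed 2-fold and 96.4% of those changed 4-fold were recovered at the adjusted threshold. The simulated spread followed its trend with abundance, which leaves out differences in spread between genes of like abundance. In the data 0 genes passed, and the lowest edgeR adjusted p of all genes was 0.917. With fewer genes changed than the simulated 200 the adjustment is stricter, and recovery in that setting was not simulated.

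The members and lists were chosen with earlier results of these data known. Values in every library were set for Vamp1, Vamp2, Snap25, Stx1a, Syt1, Syt2, Syt11, members at an unadjusted p under 0.05 or with groups that do not overlap, and the member of highest level per kilobase in each subfamily. The same rule named the other pathway genes at an unadjusted p under 0.05. Values of further members were added after they were seen. Alternatives were other tools, scalings and filters, a replicate block, genes free of opposite-strand overlap, and leaving out libraries.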

Additional observations from a re-analysis of the deposited data

How the results depend on the processing

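Under all 17 alternatives 0 members passed the adjusted threshold, and the median log2 fold change of the members stayed between -0.29 (without KO replicate 2) and -0.11 (only genes free of opposite-strand overlap). The count of all genes passing was 6 with no filter on low counts, 1 without both libraries with Y-linked counts, and 0 to 1 with single libraries left out (1 without WT replicate 3). Genes at an unadjusted p under 0.05 numbered 96 with DESeq2, 638 with no filter, 126 where only genes free of opposite-strand overlap were tested, and 208 to 290 with single libraries left out. Members below 0 were 16 of 20 tested in that overlap-free class, 80.0% beside 47.6% of all genes there, where fewer genes were tested. With single libraries left out, 22 to 29 members were below 0. Members at an unadjusted p under 0.05 were 2 to 6 with single libraries left out, with 5 without WT replicate 3 (Cplx1, Syp, Syt11, Syt7, Vamp1) and 6 without KO replicate 1 (Cplx2, Doc2b, Synj1, Syt11, Unc13a, Vamp1). Vamp1 stayed at -1.62 to -1.13 with an edgeR, limma or DESeq2 unadjusted p of 0.000115 to 0.00587 and an adjusted p of 0.219 to 1.0. Its share difference was -19.0 percentage points without both libraries with Y-linked counts and -17.2 to -10.1 with single libraries left out. Without both of those libraries Dnm1 was at 0.11, Napb at 0.24 and Slc17a7 at 0.21. The effect of single libraries was counted for the members and not for all tested genes. Leaving out 1 library moved the value by over 1.5 times, or turned it, for 29 of the 33 tested members. It turned for 12, among them Bsn (-0.15 to 0.32), Dnm1 (-0.45 to 0.04), Napb (-0.44 to 0.06), Slc17a7 (-0.43 to 0.06), Sv2a (-0.26 to 0.02), Syt1 (-0.30 to 0.24), Syt2 (-0.40 to 0.02) and Unc13c (-0.02 to 0.37); the cause was not tested. Scaling by all uniquely aligned reads put 59.2% of all tested genes below 0 in place of 49.7%, with 26 of 33 members below 0. With the replicate block, edgeR called 0 genes, and 4 members were at an unadjusted p under 0.05 (Syp besides Vamp1, Syt11 and Doc2b). That was 12.1% of the tested members beside 5.39% of all tested genes. Deviations of same-numbered libraries correlated at 0.143, 0.0795 and 0.122, and those of differently numbered libraries at -0.113 to -0.0111. Every library thus correlated best with its own number. No label says that the numbers pair, so the main fit did not take them as pairs. A shared origin of same-numbered libraries remains possible. A tested gene had a median of 24 to 31 counts per library. On simulated counts of the same depth and number of libraries, with 200 genes changed, 60.0% of 2-fold changes were recovered. The spread of the simulated counts followed its trend with abundance and not each gene, and the share of depth in this recovery was not tested. Recovery with fewer genes changed, where the adjustment is stricter, was not simulated.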
